A study of Mus musculus with 6 samples.

Results

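The genes described here are 10 neighbours on mouse chromosome 11, 9 of them CC chemokines and the other *Wfdc17*, among 23204 genes in the deposited count table. They were taken by symbol and chromosome, and they were chosen with their genotype values in these same libraries already known. Their genotype difference is therefore given as a description without a test. RNA was sequenced from osteoclasts, the bone-resorbing cells of the monocyte lineage, grown from bone marrow of C57BL/6 mice with M-CSF and then RANKL. Of 6 libraries, 3 are labelled Tet2Rank–/–; Tet3aRank+/– and the other 3 wild type. The labels were read as loss of both *Tet2* alleles and of one *Tet3* allele. They do not spell out Rank, the promoter behind a deletion, or the animals' ages. Each group was labelled with 1 female and 2 males, but the table's columns do not show which is which. Libraries go by the leading number of their column: 2, 3 and 5 are labelled mutant, and 1, 4 and 6 are wild type.

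Chemokines are small secreted proteins that draw leukocytes along concentration gradients by binding G protein-coupled receptors. The CC class of the mouse sits largely in gene clusters, of which chromosome 11 holds the main one. *Ccl6* and *Ccl9* encode rodent ligands of the receptor CCR1, and CCL9 is known as a chemokine that RANKL induces in osteoclasts. *Ccl3*, *Ccl4* and *Ccl5* encode inflammatory chemokines, and those of *Ccl3* and *Ccl5* also bind CCR1. *Ccl2*, *Ccl7* and *Ccl12* encode monocyte chemoattractants that bind CCR2, and mouse *Ccl8* encodes a ligand of CCR8. *Wfdc17* is no chemokine: it encodes a small secreted protein with a WAP domain, known from activated mouse macrophages and microglia.

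The 10 genes lay in 2 blocks (mm10). *Ccl2*, *Ccl7*, *Ccl12* and *Ccl8* ran from 82035571 to 82116799 on the plus strand. *Ccl11*, another CC chemokine gene, which encodes eotaxin, lies between *Ccl7* and *Ccl12* (82057823 to 82062955) and is not among the 10. After 1409 kb came *Ccl5*, *Ccl9*, *Ccl6*, *Ccl3*, *Ccl4* and *Wfdc17*, from 83525778 to 83706268. *Ccl5*, *Ccl9*, *Ccl6* and *Ccl3* are on the minus strand and *Ccl4* and *Wfdc17* on the plus strand. *Ccl6* (ENSMUSG00000018927, 83587882 to 83593087, 4 exons) is separated from *Ccl9* (ENSMUSG00000019122, 83572919 to 83578636, 4 exons) by only 9.2 kb. *Wfdc17* (ENSMUSG00000069792, 83703991 to 83706268, 3 exons) lies 39.3 kb beyond *Ccl4*. No 75-base stretch of a transcript of these genes, the read length, occurred in a transcript of another gene, so exact copies do not share their reads. An opposite-strand gene overlaps *Ccl2* and another overlaps *Ccl6*, in neither case in their exons.

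The upstream sequences of 3 genes are shown because *Ccl6* and *Wfdc17* were both higher in the libraries labelled mutant, while *Ccl9*, beside *Ccl6*, had nearly equal means. For *Ccl6* (chr11:83593088-83593337) and *Ccl9* (chr11:83578637-83578886) each is the 250 bases before the RefSeq start (GRCm38.p6), 5′ to 3′ on the gene's strand. The RefSeq start of *Wfdc17* lies inside the gene as placed above, so the last 65 bases of its window are left out and 185 are shown (chr11:83703806-83703990). Capitals mark matches, on either strand, to the motifs searched.
Ccl6: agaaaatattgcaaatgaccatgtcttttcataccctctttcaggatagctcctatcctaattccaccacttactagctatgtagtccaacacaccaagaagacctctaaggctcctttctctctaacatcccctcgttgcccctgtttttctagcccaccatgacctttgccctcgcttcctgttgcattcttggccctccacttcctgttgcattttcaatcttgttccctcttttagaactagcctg
Ccl9: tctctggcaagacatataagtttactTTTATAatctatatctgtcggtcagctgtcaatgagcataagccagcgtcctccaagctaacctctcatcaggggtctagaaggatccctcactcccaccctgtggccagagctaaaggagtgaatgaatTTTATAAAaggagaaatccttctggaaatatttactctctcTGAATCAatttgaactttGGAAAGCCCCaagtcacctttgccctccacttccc
Wfdc17: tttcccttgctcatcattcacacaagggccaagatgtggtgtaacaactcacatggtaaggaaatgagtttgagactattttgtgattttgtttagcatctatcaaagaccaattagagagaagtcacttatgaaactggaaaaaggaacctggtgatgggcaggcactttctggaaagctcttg
The motifs were the NF-kB consensus, the PU.1 core GAGGAA, AP-1 as TGANTCA, C/EBP as TTGCNNAA and the TATA box TATAAA. The *Ccl6* window held none of them. The *Ccl9* window held an NF-kB match, an AP-1 match and TATA matches on both strands, 2 of which overlap. The *Wfdc17* window held a PU.1 core, in the 65 bases inside the annotated gene and so not in the stretch shown. Of 32851 promoter windows of the same length, 7.25% held the NF-kB motif, 23.3% the PU.1 core, 6.75% AP-1, 9.56% C/EBP and 12.4% the TATA box. Windows were also at hand for *Ccl12*, *Ccl8* and *Ccl3*. Over the 6 windows, 4 held the PU.1 core (*Ccl12*, *Ccl8*, *Ccl3* and *Wfdc17*) and 3 the TATA box (*Ccl12*, *Ccl8* and *Ccl9*). NF-kB and AP-1 were held by 1 each. Whether these motifs have a part in the levels was not tested. The best local alignment of the *Ccl9* and *Ccl6* windows spanned 17 bases with 16 identical.

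Total counts per library lay between 8794973 and 14267135. *Tet2* stood at 58.2, 45.5 and 52.3 CPM (read counts scaled to a common library size with TMM factors) in libraries 2, 3 and 5, against 71.7, 80.9 and 79.3 CPM in libraries 1, 4 and 6. *Tet3* stood at 163, 141 and 156 CPM in the libraries labelled mutant, against 145, 121 and 127 CPM in wild type. *Tet2* was thus lower without overlap and *Tet3* was not lower, so the genotype is written as labelled. The columns of libraries 5 and 6 carry a second number in their names, which splits each genotype and is called the naming split. In edgeR the common coefficient of variation between libraries, beyond counting error, was 40.9% with genotype alone. It was 23.5% with the naming split as a term. Defining osteoclast genes were present: 10 markers summed to 2966 to 12373 CPM in the libraries labelled mutant and to 15143 to 39699 CPM in wild type. Across 14040 genes tested with the edgeR quasi-likelihood test, the adjusted p passed the threshold of 0.05 for 7 genes that rose (0.0499%) and 3 that fell (0.0214%), 0.0712% in all. The unadjusted p was under 0.05 for 19.6%, and in DESeq2 4.72% rose and 5.44% fell.

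*Ccl6* was several times more abundant in the libraries labelled mutant. It stood at 298, 253 and 336 CPM in libraries 2, 3 and 5, against 38.8, 58.6 and 59.3 CPM in libraries 1, 4 and 6. The lowest library labelled mutant lay above the highest wild-type library. The means were 296 CPM ± 41.5 (SD, n = 3) in the libraries labelled mutant and 52.3 CPM ± 11.6 (SD, n = 3) in wild type, a ratio of 5.66. Within the naming split the log2 ratio was 2.50 for libraries 2 and 3 over 1 and 4, and 2.50 for library 5 over library 6. Leaving out each library in turn, the fitted log2 fold change of *Ccl6* ranged from 2.32 to 2.62.

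*Ccl9*, the next gene, had nearly the same mean in both genotypes. It stood at 728, 697 and 811 CPM in libraries 2, 3 and 5, against 491, 709 and 966 CPM in libraries 1, 4 and 6. The wild-type libraries held both the lowest and the highest value, so the groups overlapped. The means were 745 CPM ± 59.1 (SD, n = 3) in the libraries labelled mutant and 722 CPM ± 238 (SD, n = 3) in wild type. The fitted log2 fold change was 0.05 (SE 0.251). Its sign depended on the libraries: it was -0.17 without library 1 and -0.02 without library 5, and library 5 over library 6 gave -0.25.

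Because *Ccl6* and *Ccl9* are counted in the same library, their share needs no scaling between libraries. *Ccl6* made up 29.1% of the summed *Ccl6* and *Ccl9* counts in library 2 (95% Wilson interval 28.3 to 29.8), 26.7% in library 3 (25.8 to 27.6) and 29.3% in library 5 (28.6 to 30.02). The wild-type shares were 7.33% in library 1 (6.61 to 8.13), 7.64% in library 4 (7.13 to 8.18) and 5.79% in library 6 (5.39 to 6.20). The intervals cover counting error only. Per kilobase of exon, *Ccl6* was at 0.695, 0.616 and 0.703 of the *Ccl9* level in libraries 2, 3 and 5, and at 0.134, 0.140 and 0.104 of it in libraries 1, 4 and 6. *Ccl9* was the more abundant of the pair in each of the 6 libraries.

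**Figure D1:**
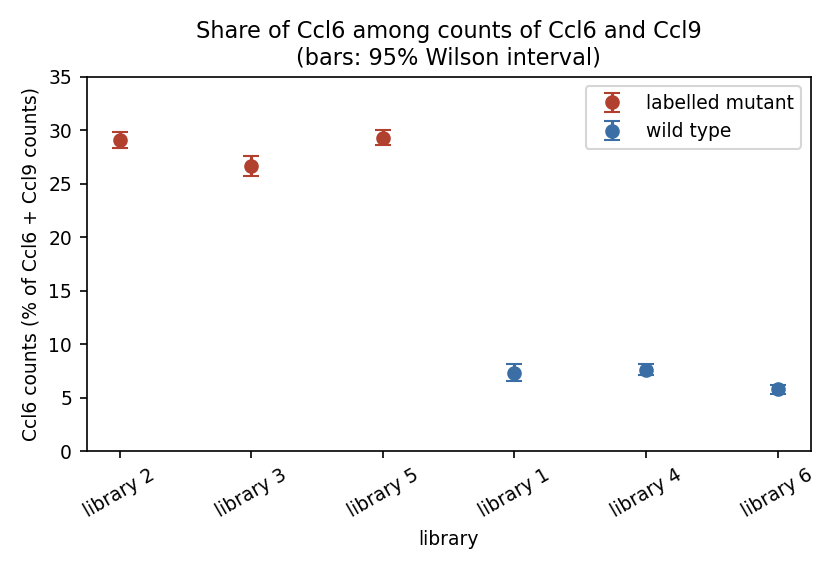
Counts of *Ccl6* as a percentage of the counts of *Ccl6* and *Ccl9* together (vertical axis) in each library (horizontal axis), with 95% Wilson intervals as bars. The 3 libraries labelled mutant lie between 26.7% and 29.3% and the 3 wild-type libraries between 5.79% and 7.64%.

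*Wfdc17*, at the far end of the same block, was also higher in the libraries labelled mutant. It stood at 120, 75.2 and 97.7 CPM in libraries 2, 3 and 5, against 17.0, 28.0 and 25.1 CPM in libraries 1, 4 and 6. The groups did not overlap. Within the genotypes its order matched that of *Ccl6* only in part. Libraries 3 and 1 were the lowest of their genotypes for both genes. The highest were libraries 2 and 4 for *Wfdc17*, and libraries 5 and 6 for *Ccl6*. The means were 97.6 CPM ± 22.3 (SD, n = 3) in the libraries labelled mutant and 23.4 CPM ± 5.69 (SD, n = 3) in wild type, a ratio of 4.17 and a fitted log2 fold change of 2.06 (SE 0.246). Likeness to *Ccl6* was measured as the root-mean-square difference of log2 CPM over the 6 libraries, each gene centred on its own mean. Of 9360 other genes averaging 10 CPM or more, *Wfdc17* was the closest to *Ccl6*, at 0.28. Next came the phosphodiesterase gene *Pde3b* (0.36), the apolipoprotein gene *Apoe* (0.40), the transferrin gene *Trf* (0.44) and the integrin gene *Itga9* (0.45). Among the other cluster genes ranked, *Ccl3* was number 49 (0.71), *Ccl2* number 256 and *Ccl9* number 2408. The other 5 averaged under 10 CPM and so had no rank. Of these, *Ccl4* lay at 0.399, closer than *Apoe* (0.405), and *Ccl12* at 0.65, closer than *Ccl3*. *Ccl7* lay at 0.92, *Ccl5* at 1.04 and *Ccl8* at 1.17. These ranks and distances rest on the libraries that chose the cluster and describe them only.

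*Ccl3* and *Ccl4*, which lie between *Ccl6* and *Wfdc17*, were also higher without overlap, at lower levels. *Ccl3* stood at 21.6, 13.4 and 14.3 CPM in libraries 2, 3 and 5, against 6.77, 7.90 and 5.13 CPM in libraries 1, 4 and 6. Its fitted log2 fold change was 1.32 (SE 0.278), with 1.26 and 1.48 on the sides of the naming split without and with a second number. *Ccl4* stood at 5.81, 4.69 and 7.96 CPM in the libraries labelled mutant, against 1.17, 1.16 and 2.24 CPM in wild type, or 2.00 on the log2 scale (SE 0.439). Its wild-type counts were only 10, 15 and 28, so counting error weighs on its ratio. Leaving out each library in turn, the fitted log2 fold change ranged from 1.10 to 1.51 for *Ccl3*, from 1.77 to 2.41 for *Ccl4* and from 1.87 to 2.23 for *Wfdc17*.

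*Ccl5*, at the start of this block, overlapped between the groups. It stood at 6.58, 3.26 and 7.22 CPM in libraries 2, 3 and 5, against 4.32, 3.72 and 2.16 CPM in libraries 1, 4 and 6. Library 3, labelled mutant, lay below wild-type libraries 1 and 4. The fitted log2 fold change was 0.75 (SE 0.448). Its log2 ratio was 0.29 in libraries without a second number and 1.74 in those with one. CCL5 is known as a product of T and NK cells. Of 10 markers of these cells, the 8 in the table summed to 0.490 to 1.49 CPM in the libraries labelled mutant and to 0.542 to 0.962 CPM in wild type. The T cell receptor complex genes *Cd3d*, *Cd3e* and *Cd3g* had 0 or 1 count in each library. *Nkg7*, a granule gene of NK and cytotoxic T cells, had 2, 8 and 14 counts in libraries 2, 3 and 5, against 1, 3 and 4 counts in libraries 1, 4 and 6. In the same order of libraries, *Cd8a* had 3, 0 and 4 counts against 4, 2 and 4. *Gzmb* had 0, 1 and 0 counts against 2, 0 and 1, and *Klrb1c* 1, 4 and 1 against 0, 0 and 2. *Prf1* had 1 count, in library 5. Of the libraries labelled mutant, library 2 was the lowest in *Nkg7* and library 3 in *Ccl5*. These markers were named after their values were seen. None of these markers passed the filter on low counts, and their part in the *Ccl5* level was not tested.

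**Figure D2:**
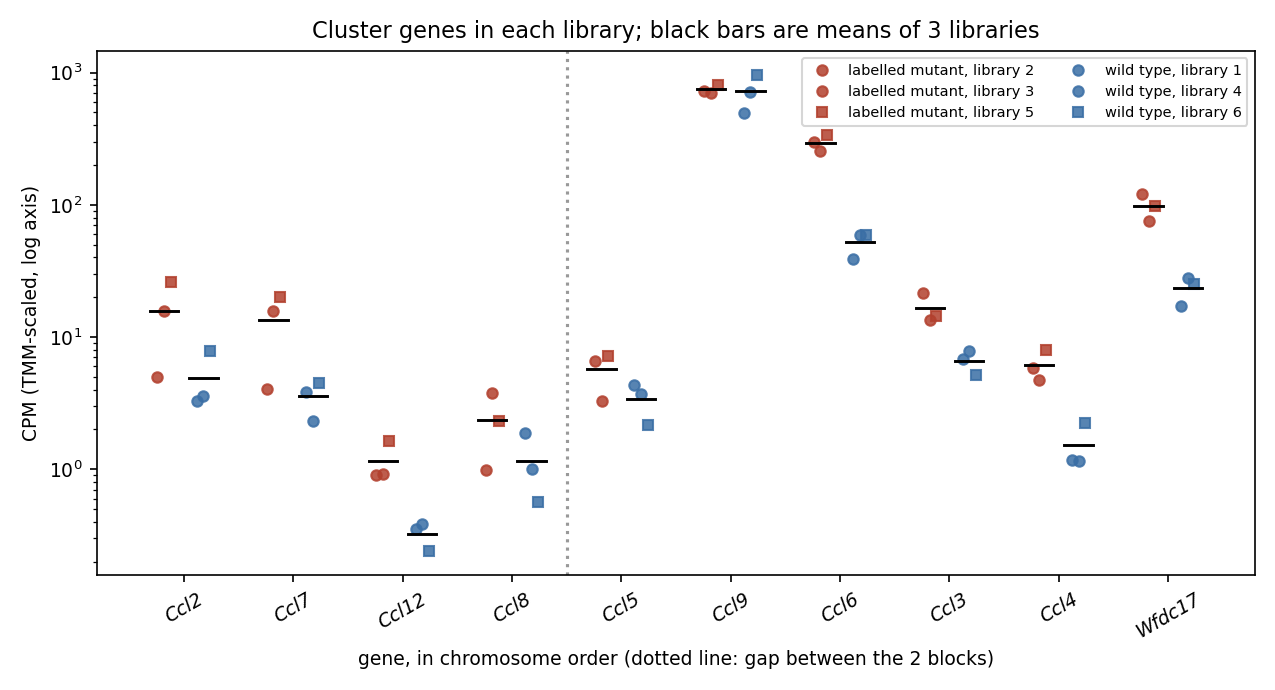
CPM of the 10 genes (vertical log axis) in chromosome order (horizontal axis), one point per library, with libraries labelled mutant left of wild type and black bars at the means. Squares are libraries 5 and 6. *Ccl12*, *Ccl6*, *Ccl3*, *Ccl4* and *Wfdc17* do not overlap between the genotypes, and *Ccl9* has nearly equal means.

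In the block of monocyte chemoattractants, *Ccl2* and *Ccl7* varied several-fold among the libraries labelled mutant. *Ccl2* stood at 4.97, 15.7 and 26.3 CPM in libraries 2, 3 and 5, against 3.27, 3.56 and 7.86 CPM in libraries 1, 4 and 6. *Ccl7* stood at 4.06, 15.8 and 20.2 CPM in the libraries labelled mutant, against 3.85, 2.32 and 4.49 CPM in wild type. For both genes library 2, labelled mutant, lay below wild-type library 6, while libraries 3 and 5 lay above every wild-type library. The fitted log2 fold changes were 1.67 for *Ccl2* (SE 0.653) and 1.91 for *Ccl7* (SE 0.611). Leaving out each library in turn gave 1.06 to 2.22 for *Ccl2* and 1.47 to 2.37 for *Ccl7*. On the sides of the naming split without and with a second number, the log2 ratio was 1.60 and 1.74 for *Ccl2*, and 1.69 and 2.17 for *Ccl7*. Libraries 5 and 6, which carry the second number, were the highest of their genotypes. Library 5 over 2 and 3 gave 1.35 for *Ccl2* and 1.02 for *Ccl7*, and library 6 over 1 and 4 gave 1.20 and 0.54.

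Marker genes of stromal cells, which are known to secrete these chemokines, shared part of this order, as did other marker lists. The 6 stromal markers, among them the collagen genes *Col1a1* and *Col1a2*, summed to 643, 2054 and 3252 CPM in libraries 2, 3 and 5, against 821, 791 and 2325 CPM in libraries 1, 4 and 6. Most of each sum came from the collagen genes, which in library 2 stood at 277 CPM (*Col1a1*) and 304 CPM (*Col1a2*). Among the libraries labelled mutant, library 2 was the lowest and library 5 the highest in the summed markers and in both chemokines. Among wild type, library 6 was the highest in these, though it lay above library 3 in the summed markers and below it in *Ccl2* and *Ccl7*. The growth factor receptor gene *Pdgfra* had another order, at 27.3, 23.5 and 25.8 CPM in libraries 2, 3 and 5, against 15.6, 33.2 and 14.2 CPM in libraries 1, 4 and 6. Library 2 lowest and library 5 highest of those labelled mutant, with library 6 highest in wild type, was not particular to stromal markers. Osteoclast markers had it too, summing to 2966, 8448 and 12373 CPM in libraries 2, 3 and 5, against 18416, 15143 and 39699 CPM in libraries 1, 4 and 6. So did neutrophil, T and NK cell, and mast cell, basophil and eosinophil markers, but not macrophage, B cell or dendritic cell markers. Of the 6 markers, all of them detected, 0 passed in edgeR, 0 had an unadjusted p under 0.05, and 0 passed in DESeq2 or in edgeR with the naming split as a term. Their part in the *Ccl2* and *Ccl7* levels was not tested. In bulk RNA a different number of cells and a different amount of RNA per cell cannot be told apart.

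**Figure D3:**
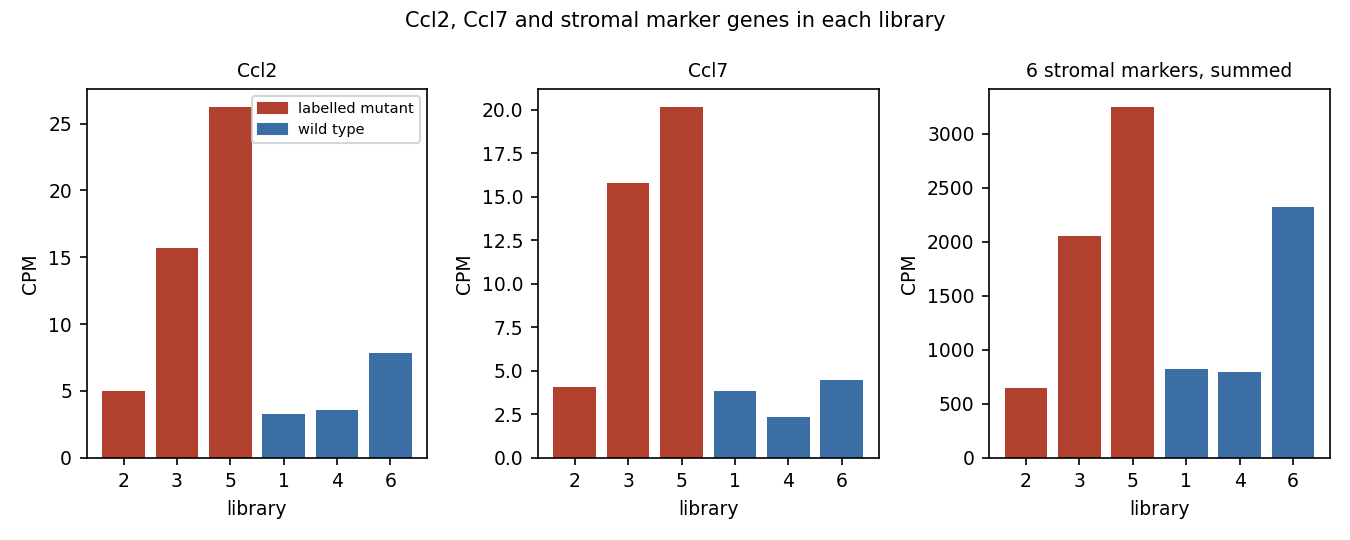
CPM of *Ccl2*, of *Ccl7* and summed over 6 stromal marker genes (vertical axes) in each library (horizontal axes), with libraries 2, 3 and 5, labelled mutant, left of wild-type libraries 1, 4 and 6. Library 5 is the highest in each panel, at 26.3, 20.2 and 3252 CPM.

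*Ccl12* and *Ccl8*, beside them, were near the lower limit of detection. *Ccl12* had 13, 9 and 22 counts in libraries 2, 3 and 5, against 3, 5 and 3 counts in libraries 1, 4 and 6. It passed the filter on low counts only through the libraries labelled mutant, so its place among the genes tested rests on them. Its fitted log2 fold change was 1.80 (SE 0.573), with 1.31 and 2.77 on the sides of the naming split without and with a second number. *Ccl8* had 14, 37 and 31 counts in the libraries labelled mutant, against 16, 13 and 7 counts in wild type. Its groups overlapped, and its fitted log2 fold change was 1.04 (SE 0.695). That value was 0.53 without library 3 and 1.57 without library 1, and the log2 ratio was 0.73 on the side of the naming split without a second number and 2.04 on the side with one.

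Taken per kilobase of exon, the order of levels was nearly the same in both genotypes. *Ccl9* led, with 245 ± 19.4 CPM per kilobase of exon in the libraries labelled mutant and 237 ± 78.1 in wild type (SD, n = 3 each). *Wfdc17* followed at 183 ± 41.8 in the libraries labelled mutant and 43.9 ± 10.7 in wild type. *Ccl6* stood at 165 ± 23.1 in the libraries labelled mutant and 29.1 ± 6.48 in wild type. *Ccl3* came next at 21.5 ± 5.88 in the libraries labelled mutant and 8.61 ± 1.82 in wild type, and *Ccl12* was last at 2.15 ± 0.778 in those labelled mutant and 0.607 ± 0.142 in wild type. *Wfdc17* and *Ccl6* overlapped in both genotypes. With the longest transcript as the length, *Ccl6* averaged 205 CPM per kilobase in the libraries labelled mutant, above *Wfdc17*, but stayed below it in wild type. By that length *Ccl5* was number 8 in the libraries labelled mutant and number 5 in wild type. *Ccl7* was number 5 in those labelled mutant and number 7 in wild type. The next comparisons are per kilobase of exon. Below *Ccl3*, each gene overlapped the next in order, except that *Ccl8* and *Ccl12* did not overlap in wild type. *Ccl3* itself overlapped *Ccl7* in the libraries labelled mutant but not in wild type. Library by library, per kilobase of exon, *Wfdc17* lay above *Ccl6* in 3 wild-type libraries and 2 labelled mutant. Among those labelled mutant, *Ccl7* over *Ccl2*, *Ccl4* over *Ccl5* and *Ccl8* over *Ccl12* held in 3. There, *Ccl2* over *Ccl4* and *Ccl5* over *Ccl8* held in 2, and *Ccl3* over *Ccl7* in 1.

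The 10 genes summed to 1192, 1082 and 1325 CPM in libraries 2, 3 and 5, against 568, 816 and 1073 CPM in libraries 1, 4 and 6. *Ccl9* made up 61.1%, 64.4% and 61.2% of these counts in the libraries labelled mutant and 86.4%, 86.9% and 90.02% in wild type. All 10 passed the filter on low counts, *Ccl12* only through the libraries labelled mutant. All 10 had a fitted log2 fold change above 0, with a median of 1.73. Of genes tested, 46.8% lay above 0, and their median was -0.03. The libraries of 5 genes, *Ccl12* among them, did not overlap and were higher in those labelled mutant, as were those of 9.91% of genes tested. In the edgeR fit 1 of the 10 (*Ccl6*) was called, beside 0.0499% of genes tested that rose. With the naming split as a term 4 were called (*Ccl6*, *Ccl3*, *Ccl4* and *Wfdc17*), beside 3.08% that rose and 5.6% that fell. In DESeq2 5 were called (*Ccl7* and those 4), beside 4.72% that rose. Since the genes were chosen on this contrast, nothing is read from these counts. The call of *Ccl6* was lost when any 1 library was left out.

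The levels of other marker lists stand beside these values. Of all genes tested, 19.6% had an unadjusted p under 0.05, and 4.72% rose and 5.44% fell in DESeq2. In edgeR with the naming split as a term, 3.08% rose and 5.6% fell. Of 11 macrophage markers, 10 had a log2 fold change above 0 and 0 passed in edgeR (7 had an unadjusted p under 0.05, 7 rose in DESeq2, and 5 rose in edgeR with the naming split as a term). Summed, they stood at 9032 to 9667 CPM in the libraries labelled mutant and 5825 to 7326 CPM in wild type. The 10 osteoclast markers were all below 0, and 0 passed in edgeR (5 had an unadjusted p under 0.05, 3 fell in DESeq2, and 7 fell in edgeR with the naming split as a term). Neutrophil markers, 9 of 10 tested and each of these above 0, summed to 438, 538 and 1359 CPM in libraries 2, 3 and 5, against 286, 251 and 894 CPM in libraries 1, 4 and 6. Of these, 0 passed in edgeR, 0 had an unadjusted p under 0.05 and 0 passed in DESeq2, while with the naming split as a term 4 rose (*S100a8*, *S100a9*, *Ltf* and *Ngp*, named after their values were seen). B cell markers summed to 13.8 to 17.2 CPM in the libraries labelled mutant and 6.09 to 8.40 CPM in wild type, and dendritic cell markers to 4.79 to 10.6 CPM in those labelled mutant and 6.27 to 10.7 CPM in wild type. Mast cell, basophil and eosinophil markers summed to 5.39 to 14.1 CPM in the libraries labelled mutant and 4.55 to 9.06 CPM in wild type. In these last 3 lists 0 markers passed in edgeR, with or without the naming split as a term, and 1 B cell marker (*Cd79b*, named after its values were seen) had an unadjusted p under 0.05 and rose in DESeq2. No marker of the lists in the table was at 0 in all libraries. The part of these cells in the chemokine levels was not tested.

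The rest of the region did not share a direction. The table held 50 other genes from 500 kb before *Ccl2* to 500 kb after *Wfdc17*. Of the 28 tested, 10 lay above 0 and 18 below, with a median log2 fold change of -0.06. In edgeR 0 passed, beside 0.0712% of genes tested, and 5 had an unadjusted p under 0.05, beside 19.6%. *Taf15*, which encodes an RNA-binding protein, lies 19 kb below the block of *Ccl5* and stood at 53.8 ± 7.27 CPM in the libraries labelled mutant and 51.2 ± 0.976 CPM in wild type (SD, n = 3 each; log2 fold change 0.07, SE 0.119). *Wfdc21*, 40.7 kb above the block, stood at 3.94 ± 1.96 CPM in the libraries labelled mutant and 2.16 ± 1.09 CPM in wild type (log2 fold change 0.86, SE 0.557). The nearest named gene tested beside *Ccl8*, *Zfp830*, lay 647.5 kb away and had a log2 fold change of -0.21 (SE 0.156). The most abundant neighbours were *Slfn5*, of the Schlafen family, with 0.44 (SE 0.378) and *Ap2b1*, an adaptor subunit of clathrin-coated vesicles, with -0.01 (SE 0.110). In DESeq2 *Slfn8* rose and *Slfn4* and *Gm11427* fell (named after their values were seen), beside 4.72% of genes tested that rose and 5.44% that fell. *Slfn4* also fell in edgeR with the naming split as a term, beside 5.6% of genes tested.

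**Figure D4:**
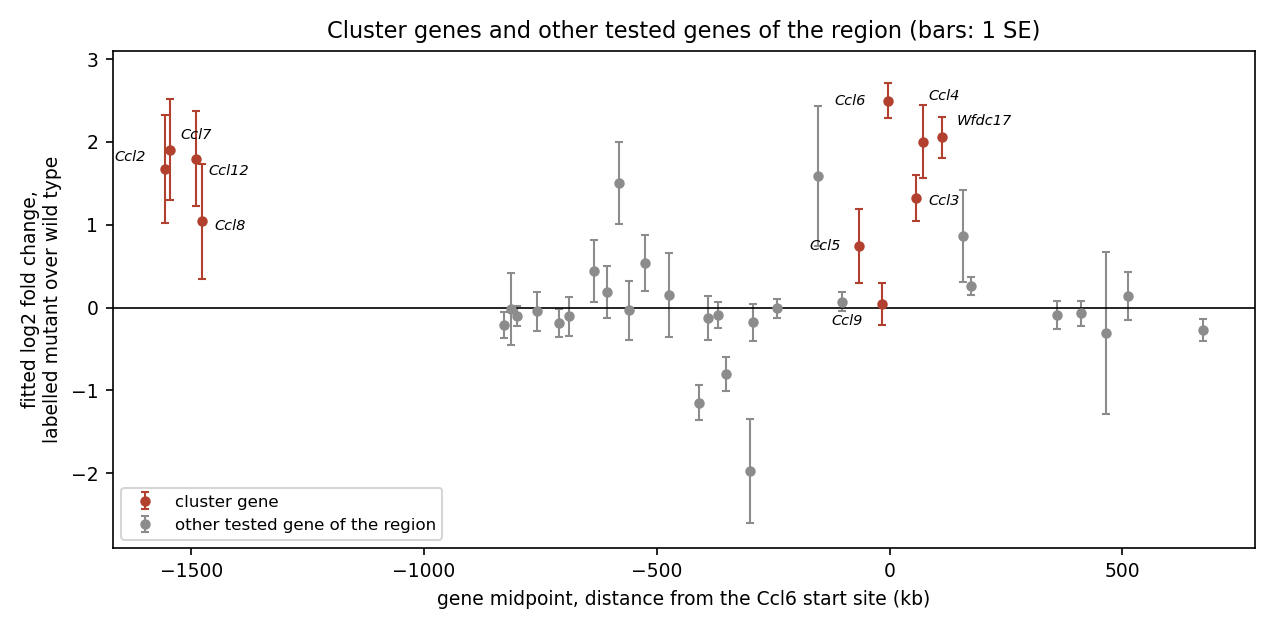
Fitted log2 fold change, libraries labelled mutant over wild type (vertical axis, bars 1 SE), against the distance of each gene's midpoint from the *Ccl6* start site in kb (horizontal axis). Red points are the 10 cluster genes, from 0.05 for *Ccl9* to 2.50 for *Ccl6*, and grey points the other 28 tested genes of the region.

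The receptor genes of these ligands had fold changes of both signs. Of 14 CC chemokine receptor genes listed, 13 were in the table and 5 were tested, 4 of them above 0. *Ccr8*, which encodes the receptor of CCL8, was not in the table. In edgeR 0 passed and 2 had an unadjusted p under 0.05 (*Ccr2* and *Ccrl2*), beside 19.6% of genes tested. In DESeq2 1 rose (*Ccr2*), beside 4.72% of genes tested. *Ccr1*, which encodes the receptor of CCL6, CCL9 and CCL3, stood at 38.3, 107 and 170 CPM in libraries 2, 3 and 5, against 197, 154 and 414 CPM in libraries 1, 4 and 6. Library 5 overlapped wild type, and the log2 fold change was -1.28 (SE 0.598, edgeR adjusted p = 0.308). *Ccr2*, which encodes the receptor of CCL2, CCL7 and CCL12, stood at 222, 80.0 and 115 CPM in the libraries labelled mutant, against 67.2, 62.9 and 39.0 CPM in wild type. The groups did not overlap, and the log2 fold change was 1.31 (SE 0.407, edgeR adjusted p = 0.157). *Ccr3*, which encodes a receptor of CCL5 and CCL7, was nearly level, at 0.19 (SE 0.462, edgeR adjusted p = 0.910). *Ccr3* and *Ccrl2* were named after their values were seen.

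**Figure D5:**
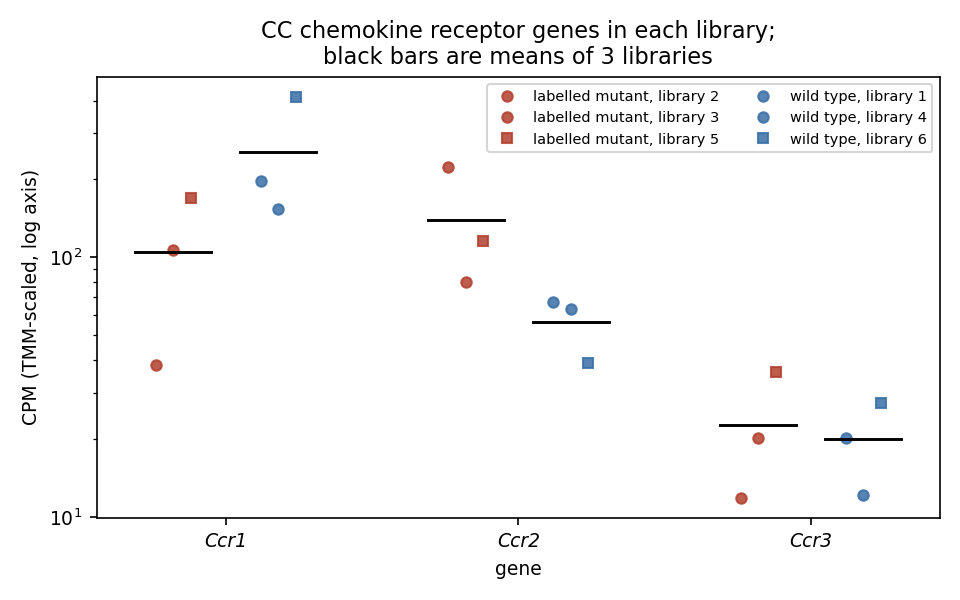
CPM of 3 CC chemokine receptor genes (vertical log axis) by gene (horizontal axis), one point per library, with libraries labelled mutant left of wild type and black bars at the means. *Ccr1* averaged 105 CPM in the libraries labelled mutant and 255 CPM in wild type, and *Ccr2* 139 CPM in those labelled mutant and 56.4 CPM in wild type.

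Downstream of the receptors, 22 genes of chemokine signalling were all tested. In edgeR 0 passed, and the median log2 fold change of the 22 was 0.23. An unadjusted p under 0.05 was found for 9, 6 of them above 0 and 3 below, beside 19.6% of genes tested. With the naming split as a term 2 rose, *Arrb2* and *Rgs18*, and 3 fell, *Grk3*, *Pik3r5* and *Rac2* (all but *Rac2* named after their values were seen). Of all genes tested, 3.08% rose and 5.6% fell with that term. *Arrb2* encodes a beta-arrestin that uncouples and internalises receptors, and stood at 254 ± 22.4 CPM in the libraries labelled mutant and 141 ± 10.97 CPM in wild type (SD, n = 3 each; log2 fold change 0.85, SE 0.120, edgeR adjusted p = 0.0589). *Rac2*, a small GTPase gene of leukocyte migration, stood at 323 ± 60.8 CPM in the libraries labelled mutant and 591 ± 174 CPM in wild type (edgeR adjusted p = 0.138). *Gnai2*, an inhibitory G protein subunit gene, stood at 757 ± 48.8 CPM in the libraries labelled mutant and 591 ± 42.3 CPM in wild type (log2 fold change 0.36, SE 0.126, edgeR adjusted p = 0.191).

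CC chemokine genes other than the cluster members were scarce, though so were several members. In wild type *Ccl25*, not a member, averaged 6.89 CPM and *Ccl3* 6.60 CPM. In the libraries labelled mutant *Ccl25* averaged 5.92 CPM and *Ccl3* 16.5 CPM. Of 12 listed, 9 were in the table and 4 were tested, 3 of them above 0. *Ccl11*, inside the first block, had 1, 0 and 1 counts in libraries 2, 3 and 5, against 4, 3 and 0 counts in libraries 1, 4 and 6, and did not pass the filter on low counts. In edgeR 0 passed, 0 had an unadjusted p under 0.05 (beside 19.6% of genes tested) and 0 passed in DESeq2. *Ccl25* stood at 5.92 ± 1.88 CPM in the libraries labelled mutant and 6.89 ± 0.924 CPM in wild type, and *Ccl24* at 3.87 ± 2.30 CPM in those labelled mutant and 1.98 ± 0.602 CPM in wild type (SD, n = 3 each). The log2 fold changes were -0.22 for *Ccl25* (SE 0.324) and 0.97 for *Ccl24* (SE 0.537).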

How the data were processed

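Per the labels' protocols, stranded mRNA libraries were read from one end over 75 bases. TopHat2 2.0.13, Bowtie2 2.2.3, SAMtools 0.1.19 and build mm10 are named in the submitters' processing notes. How reads were counted over genes, and on which annotation, is not given in the sources used here. The authors deposited raw counts per gene, not normalized, in 23264 rows, of which 60 repeated a gene with the same counts and were dropped. Counts were scaled by TMM and tested with edgeR 4.0.16 (quasi-likelihood, filterByExpr, Benjamini-Hochberg, threshold 0.05) under R 4.3.3, with genotype as the term. DESeq2 1.42.0 and other alternatives are in the closing section. Each standard error is the fold change on the log2 scale divided by the root of its F statistic. Totals of 8794973 to 14267135 counts limit precision for genes of few counts. The fit was tested on simulated data. Exon lengths came from GENCODE M21 (same build; 99.8% of identifiers matched). Promoter windows came from RefSeq (GRCm38.p6), matched by symbol for 6 of 10 genes. The labels give both sexes in each group, hence at least 2 animals per genotype, but do not say whether all 3 libraries of a group came from separate animals, so p-values measure the spread between libraries. Columns gave the genotype but no replicate number. Another gene of the receptor list is not reported here. The members, lists and naming split were chosen with earlier results of these data known. Named besides the members were *Tet2*, *Tet3*, list genes past the threshold or otherwise the 2 of highest mean, the nearest tested neighbours, and the 5 ranked genes most like *Ccl6*.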

Additional observations from a re-analysis of the deposited data

How the results depend on the processing

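Fitted log2 fold changes of the 10 cluster genes kept their sign under RLE size factors, DESeq2, no filter on low counts and the naming split as a term. The exceptions elsewhere were for *Ccl9*: -0.17 without library 1 and -0.02 without library 5 (range over libraries left out -0.17 to 0.33), and -0.25 for library 5 over library 6; the cause was not tested. Counts of calls depended on the setting. With DESeq2, 662 genes rose (4.72% of genes tested) and 764 fell (5.44%). Among them were 5 cluster genes, 1 receptor gene and 4 signalling genes that rose, and 3 signalling genes that fell. They also held 1 neighbouring gene that rose and 2 that fell. Without the filter on low counts 46 rose and 35 fell, among them 2 cluster genes and 1 signalling gene that rose. That fit covers more genes than the 14040, so the shares given for those do not apply. Nothing is read from its counts. With the naming split as a term 433 rose (3.08%) and 786 fell (5.6%). Among them were 4 cluster genes and 2 signalling genes that rose, and 3 signalling genes and 1 neighbouring gene that fell. Leaving out each library in turn gave 0 to 2 genes that rose, 0 to 1 that fell and 0 cluster genes called. The order of the 5 ranked genes most like *Ccl6* was the same without TMM factors. No paired analysis was possible because the column names carry no replicate number. *Ccl12*, *Ccl8* and *Ccl4* rest on few counts.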
